A study of Mus musculus with 44 samples.

Results

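The 2 gonadotropin receptors, Fshr (follicle-stimulating hormone receptor) and Lhcgr (luteinizing hormone and choriogonadotropin receptor), were examined in mouse ovarian follicles exposed to PFNA (perfluorononanoic acid, a long-chain perfluoroalkyl acid). They were taken by gene symbol and are 2 of the 22674 genes in the table of the maturation window and 2 of the 18274 genes in the table of the ovulation window. Both passed the filter on low values in both windows, where 13712 and 13441 genes were tested.

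Both receptors are G protein-coupled receptors with a large extracellular domain that binds a glycoprotein hormone, and both act mainly through the stimulatory G protein, adenylyl cyclase, cyclic AMP and protein kinase A. Fshr is made by granulosa cells, where FSH drives follicle growth and estradiol synthesis. Lhcgr is made by theca cells and, late in follicle growth, by mural granulosa cells, which acquire it under FSH. The LH surge, or hCG (human chorionic gonadotropin) given in its place, acts through Lhcgr to start ovulation and luteinization, and the level of receptor transcript in granulosa cells is known to fall after it.

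The study sequenced poly-A RNA of follicles of wild-type CD-1 mice, an outbred strain, in 44 libraries. PFNA was given either in the maturation window, when follicles grow under gonadotropins, or in the ovulation window, when ovulation is induced with hCG. The maturation window had 11 control libraries treated with DMSO, the solvent, and 10 treated with PFNA. The ovulation window had 12 controls treated with hCG and 11 libraries whose treatment label is hCG and PFNA. The PFNA dose, the exposure times and the ages of the mice are not given in the labels. The labels do not say whether libraries came from separate mice or cultures, so p-values measure the spread between these libraries, which may be technical.

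The maturation table is in TPM (transcripts per 1000000), a unit that keeps no sequencing depth, so the precision set by depth is unknown there. The ovulation libraries held from 10600931 to 19511531 counts, and their values are given as CPM (counts per 1000000, with library sizes scaled by TMM factors). Levels are therefore not set side by side across the windows. Markers of granulosa cells were abundant, with a summed level of 8 genes of at least 14200 TPM and 10780 CPM in every library, and no marker of the 6 cell types examined was at 0 in every library. On the first principal component of the maturation table (28.6% of the variance), PFNA libraries 1 and 2 fell within the range of the control libraries and the other 8 did not. Values without these 2 are given beside the PFNA effects on the receptors, their ratio and their correlation.

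The receptors are neighbours on mouse chromosome 17, with 193.0 kb between them, and both are read from the minus strand. Fshr spans 17:88984952-89200675 in both tables, and its annotated transcript (GENCODE M21) has 10 exons, 2360 bases and 2076 bases of coding length. Lhcgr spans 17:88716481-88791990 in the maturation table and 17:88737274-88792014 in the ovulation table, and so was counted over different gene models. Its longest coding transcript has 11 exons, 6828 bases and 2100 bases of coding length.

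The 250 bases before each start site (RefSeq, GRCm38.p6, gene strand, 5′ to 3′) are shown because several transcription factors described further on are known to bind elements of these promoters. Capitals mark matches to an E-box (CACGTG, the kind of element that Usf1 binds), the core of a steroidogenic factor 1 element (TCAAGG), a nuclear receptor half-site (AGGTCA) and a GC box (GGGCGG, bound by Sp1 and Sp3).
Fshr promoter, 17:89200676-89200925: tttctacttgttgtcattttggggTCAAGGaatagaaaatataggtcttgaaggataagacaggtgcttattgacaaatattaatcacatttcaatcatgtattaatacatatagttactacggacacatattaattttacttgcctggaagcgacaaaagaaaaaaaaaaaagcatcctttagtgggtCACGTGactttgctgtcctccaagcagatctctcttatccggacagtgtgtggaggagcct
Lhcgr promoter, 17:88792015-88792264: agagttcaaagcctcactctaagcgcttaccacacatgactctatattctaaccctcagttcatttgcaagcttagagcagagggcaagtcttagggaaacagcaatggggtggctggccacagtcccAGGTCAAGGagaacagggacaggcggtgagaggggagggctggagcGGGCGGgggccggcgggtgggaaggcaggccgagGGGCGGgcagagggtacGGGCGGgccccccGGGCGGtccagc

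The Fshr window held 1 E-box, 61 to 56 bases before the start, and 1 TCAAGG match. The Lhcgr window held 4 GC boxes, and 1 AGGTCA match that overlapped its TCAAGG match. Its GC content was 63.2% against 36.8% for Fshr. Across 32544 promoters of the same length the median was 52.4%, with quartiles at 45.2% and 61.2%. With both strands searched, 6.03% of those promoters held CACGTG, 14.0% held AGGTCA, 12.4% held TCAAGG and 33.0% held GGGCGG. The TATA box TATAAA (in 12.3% of promoters), CCAAT (in 33.8%) and AGATAA (in 9.97%) had no match in either receptor window. Such matches describe the letters only.

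In the maturation window Fshr was lower in every PFNA library than in every control. It lay between 4.93 and 9.82 TPM in the controls, with a median of 6.43 TPM. With PFNA it lay between 0.736 and 3.40 TPM, with a median of 2.48 TPM. The 10 PFNA libraries read 2.70, 3.12, 3.22, 2.46, 2.50, 2.23, 1.13, 3.40, 1.54 and 0.736 TPM in the order of their numbers. Libraries 7, 9 and 10 were the lowest, and libraries 1 and 2 lay among the higher PFNA values but still under the lowest control.

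Mean Fshr was 6.60 ± 1.30 TPM (SD, n = 11) without PFNA and 2.30 ± 0.904 TPM (SD, n = 10) with it, so the control mean was 2.87-fold the PFNA mean. On the log2(TPM + 1) scale, which understates changes of genes this low, Fshr fell by 1.24 (SE 0.15, limma with Benjamini-Hochberg adjustment, adjusted p = 7.4e-06), and without PFNA libraries 1 and 2 it fell by 1.32. Of all genes tested, 29.4% were called, 16.1% lower and 13.3% higher. Every PFNA library lay below every control in 0.788% of genes, and above every control in 0.489%. By its mean over libraries Fshr ranked 8422 of 13712 genes in the controls and 11541 with PFNA. As these are whole follicles, fewer cells of a type and less RNA per cell cannot be told apart in any of these values.

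Lhcgr overlapped between the maturation groups. The controls ranged from 26.5 to 119 TPM around a median of 56.4 TPM. The PFNA libraries ranged from 13.2 to 94.3 TPM around a median of 46.1 TPM. PFNA libraries 1 and 7, at 14.9 and 13.2 TPM, were the 2 that lay below every control, and 8 of 10 lay below the control median.

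Mean Lhcgr was 58.9 ± 28.7 TPM (SD, n = 11) in the controls and 46.3 ± 25.6 TPM (SD, n = 10) with PFNA. The log2 difference of -0.41 (SE 0.33) did not pass the test (limma, adjusted p = 0.36), nor did it without PFNA libraries 1 and 2 (-0.30). Lhcgr varied more from library to library than Fshr in both groups: its coefficient of variation was 48.7% in the controls and 55.2% with PFNA, against 19.7% and 39.2% for Fshr.

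In the ovulation window Fshr moved the other way. The hCG controls lay between 8.33 and 22.7 CPM with a median of 13.4 CPM, from 111 to 363 counts. The PFNA libraries lay between 37.2 and 87.5 CPM with a median of 61.8 CPM, from 521 to 1718 counts. The groups did not overlap. The PFNA libraries read 76.9, 47.3, 84.6, 55.2, 37.2, 52.9, 64.9, 87.5, 71.2, 61.8 and 54.9 CPM in the order of their numbers.

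With a mean of 13.7 ± 4.03 CPM (SD, n = 12) in controls and 63.1 ± 15.7 CPM (SD, n = 11) with PFNA, Fshr rose 4.61-fold. On the log2 scale it rose by 2.20 (SE 0.16, edgeR quasi-likelihood test, adjusted p = 4.7e-12). PFNA moved most of the transcriptome in this window: 73.2% of genes were called, 38.0% higher and 35.2% lower. Every PFNA library lay above every control in 11.9% of genes, and below every control in 14.1%. The rank of Fshr by mean level went from 7997 of 13441 genes to 3535.

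Lhcgr also rose in the ovulation window, with a wide spread. The controls lay between 25.5 and 113 CPM with a median of 45.5 CPM, from 373 to 1349 counts. The PFNA libraries lay between 48.9 and 779 CPM with a median of 92.6 CPM, from 774 to 10640 counts. The PFNA values were 172, 90.4, 189, 58.3, 365, 779, 68.5, 92.6, 160, 48.9 and 55.5 CPM in the order of the libraries' numbers. Libraries 5 and 6 stood above the rest, 5 of 11 lay above every control, and 11 of 11 lay above the control median.

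Its mean was 54.3 ± 27.3 CPM (SD, n = 12) in controls and 189 ± 216 CPM (SD, n = 11) with PFNA, 3.48-fold higher, while the median was 2.04-fold higher. The log2 fold change was 1.80 (SE 0.42, edgeR, adjusted p = 0.00053) and became 1.26 without PFNA library 6, still past the threshold. The highest PFNA library held 15.9 times the lowest, against 4.44 times in the controls. The mean absolute deviation of log2(CPM + 1) from the group median was 0.52 in the controls and 0.95 with PFNA, a difference that did not pass a two-sided permutation test (p = 0.14, adjusted over 4 spreads p = 0.27).

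**Figure D1:**
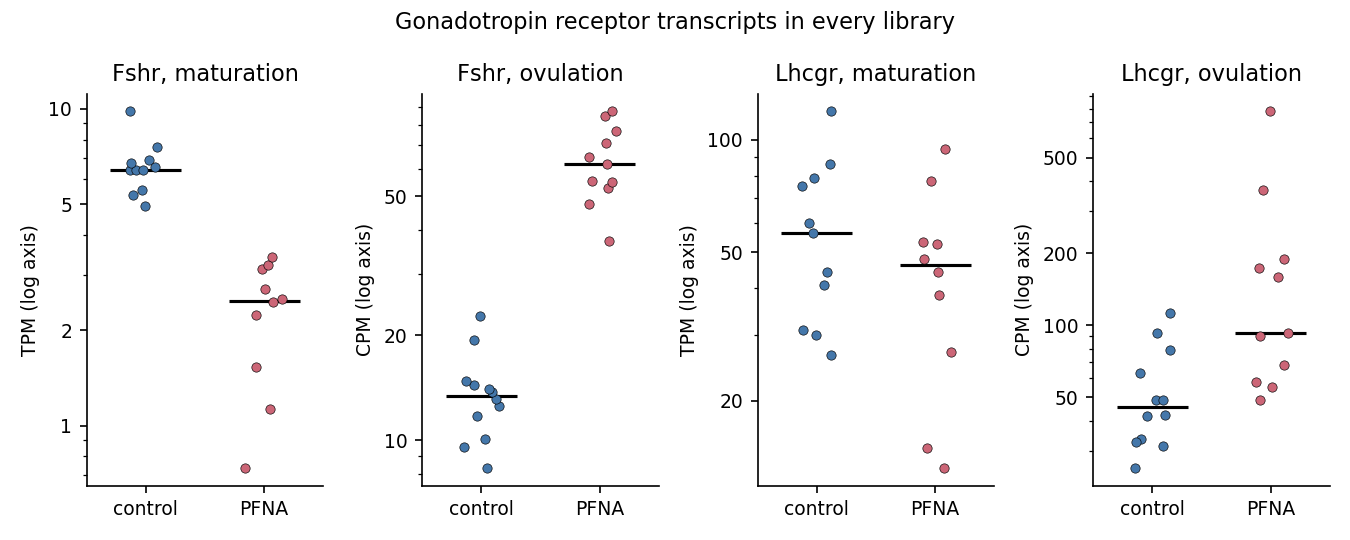
Each point is 1 library, each horizontal line the group median, and each vertical axis is logarithmic (TPM in the maturation window, CPM in the ovulation window). Fshr does not overlap between control and PFNA in either window, being lower with PFNA in maturation and higher in ovulation, while Lhcgr overlaps in both and reaches 779 CPM in 1 PFNA ovulation library.

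The PFNA effects of the 2 windows were compared on log2 values, each effect formed within its own table. For Fshr the effect was 3.37 higher on the log2 scale in the ovulation than in the maturation window (SE 0.21, limma, adjusted p = 3.2e-18). Without PFNA maturation libraries 1 and 2 it was 3.45. For Lhcgr the difference was 1.77 (SE 0.50, limma, adjusted p = 0.0020), or 1.65 without those 2, and all 11 PFNA ovulation libraries lay above their control median while 8 of 10 PFNA maturation libraries lay below theirs. Of the 11215 genes tested in both windows, 67.7% had effects that differed, 32.0% with the higher effect in ovulation and 35.6% with the lower. Window, treatment of the controls and deposited table go together, so they cannot be told apart here.

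The balance of the 2 receptors shifted towards Lhcgr in the maturation window. In TPM, which is per length, Lhcgr stood above Fshr in every maturation library. Its level was 8.74 times that of Fshr in the median control (range 4.77 to 15.8) and 21.5 times in the median PFNA library (range 5.53 to 36.6). The order of TPM levels was Fshr with PFNA, Fshr in controls, Lhcgr with PFNA and Lhcgr in controls, and only the last pair did not differ beyond its spread.

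The log2 ratio of Lhcgr to Fshr, each with 1 added, rose from 2.85 ± 0.53 (SD, n = 11) to 3.68 ± 0.73 (SD, n = 10), a difference of 0.83 or 1.78-fold (two-sided permutation test, p = 0.0087, adjusted over the 2 windows p = 0.017). It was above every control in 5 of 10 PFNA libraries. Without PFNA libraries 1 and 2, an alternative chosen after seeing the data, the difference was 1.02 (exact permutation test, two-sided, p = 0.0013).

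In the ovulation window the same ratio, on CPM, went from 1.82 ± 0.72 (SD, n = 12) to 1.04 ± 1.37 (SD, n = 11). The difference of -0.78 did not pass (two-sided permutation test, p = 0.095, adjusted p = 0.095). It lay below every control in 6 of 11 PFNA libraries and above every control in 2, libraries 5 and 6. Leaving out library 5 gave -1.002 (permutation test, p = 0.024) and leaving out library 6 gave -1.06 (permutation test, p = 0.011).

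Which receptor was the more abundant per length in the ovulation window depended on the length used. Per kb of coding length, Lhcgr was 3.07 times Fshr in the median control and 1.89 times in the median PFNA library. Per kb of all annotated exons the corresponding values were 0.959 and 0.590.

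Within the maturation controls, libraries with more Fshr also had more Lhcgr. Over 11 libraries Pearson's r of log2 values was 0.791 (permutation test, p = 0.0018, adjusted over 4 groups p = 0.0073) and Spearman's rho was 0.864 (permutation test, p = 0.0009, adjusted p = 0.0036). Without the 2 libraries farthest from the median of Fshr, r was 0.892.

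In the maturation PFNA libraries r was 0.595 (permutation test, n = 10, p = 0.066, adjusted p = 0.13) and rho 0.685 (permutation test, p = 0.034, adjusted p = 0.069). Without the 2 libraries farthest from the median of Fshr, 7 and 10, r was 0.326 over 8 libraries with a narrower range of Fshr. The value of r thus depended on which libraries were kept. Without libraries 1 and 2, an alternative chosen after seeing the data, it was 0.832 (exact permutation test, n = 8, unadjusted p = 0.0088). In the ovulation window r was 0.108 in the controls (permutation test, n = 12, p = 0.74, adjusted p = 0.74) and -0.20 with PFNA (permutation test, n = 11, p = 0.54, adjusted p = 0.73). Spearman's rho there was 0.0979 (permutation test, p = 0.77, adjusted p = 0.97) and -0.0182 (permutation test, p = 0.97, adjusted p = 0.97). Libraries 5 and 6, the highest for Lhcgr, had 37.2 and 52.9 CPM of Fshr, the lowest and the third lowest of their group. Whether r differed between groups was not tested.

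**Figure D2:**
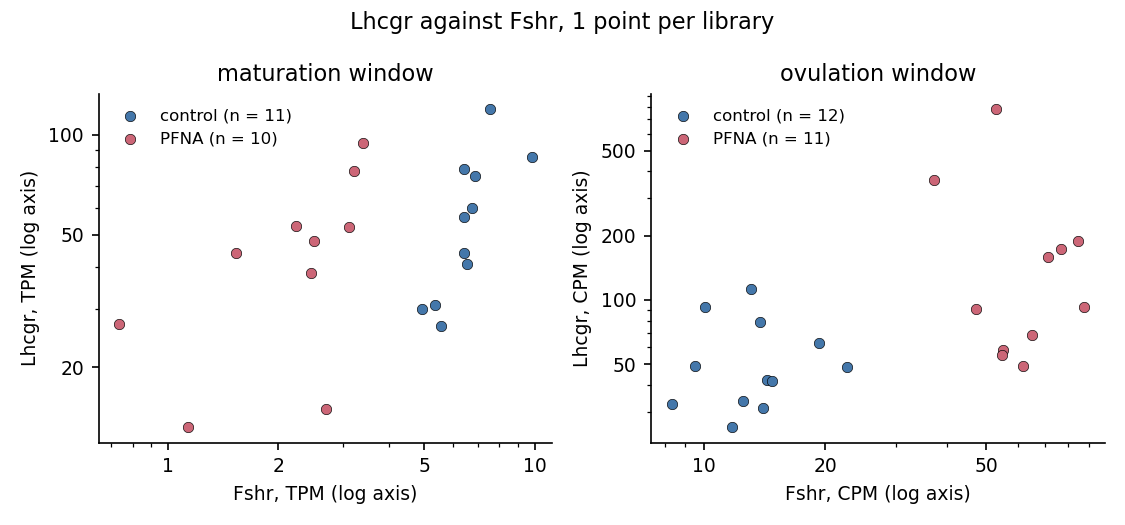
Each point is 1 library, with Fshr on the horizontal and Lhcgr on the vertical axis, both logarithmic (TPM in the maturation window, CPM in the ovulation window). The maturation controls run along a rising line (r = 0.791), whereas the ovulation PFNA libraries do not, and the 2 highest for Lhcgr are not high for Fshr.

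Beyond the receptors, 7 lists of genes of the pathway were counted, beside the median log2 fold change of all genes tested, which was 0.02 in the maturation and 0.04 in the ovulation window. Of 6 other receptors of the family (Tshr and the Lgr and Rxfp receptors), 2 were tested in the maturation window and 3 in the ovulation window. Lgr4, an R-spondin receptor, rose by 0.40 (SE 0.081, limma, adjusted p = 0.00079) in maturation, and Lgr6 rose by 2.68 (SE 0.41, edgeR, adjusted p = 1.8e-06) in ovulation, from 0.670 to 4.38 CPM. Of the 21 genes of G proteins, adenylyl cyclases and protein kinase A, 16 were tested in maturation, where 5 were higher and 4 lower, against 13.3% and 16.1% of all genes. With a replicate block 1 was higher, and 2895 genes in all were called against 4030 in the main fit. Over 27 alternatives 1 to 6 were higher and 3 to 6 lower. In ovulation 5 were higher and 8 lower of 19, so 13 of 19 were called where 73.2% of all genes were.

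Gnas, the stimulatory G protein through which both receptors signal, was 147 ± 7.65 TPM (SD, n = 11) in maturation controls and 140 ± 14.3 TPM (SD, n = 10) with PFNA, a log2 difference of -0.08 that did not pass. In ovulation it fell by 0.69 (SE 0.091, edgeR, adjusted p = 2.0e-07). The catalytic subunits Prkaca and Prkacb fell by 0.82 and 0.40, and the regulatory subunit Prkar2b, an FSH-induced gene of granulosa cells, rose by 2.57. Adcy6, an adenylyl cyclase, rose by 0.57 in maturation and differed by 0.10 in ovulation, which did not pass. Of the other cyclases, Adcy4 rose by 2.31, Adcy5 rose by 1.09, Adcy7 rose by 1.76 and Adcy9 rose by 1.27 in ovulation, and Adcy3 fell by 0.26.

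Genes that desensitise or traffic the receptors mostly did not pass in maturation: of 10 tested, 1 was lower and none higher, against 16.1% and 13.3% of all genes. That one was Mvk, mevalonate kinase, which also binds and destabilises Lhcgr transcript. Mvk stood at 65.6 ± 11.2 TPM (SD, n = 11) in controls against 29.5 ± 13.2 TPM (SD, n = 10) with PFNA. It fell by 1.22 on the log2 scale (SE 0.18, limma, adjusted p = 4.7e-05), with 8 of 10 PFNA libraries under the lowest control. In ovulation Mvk was 14.1 and 15.1 CPM and did not pass (log2 difference 0.11, edgeR, adjusted p = 0.50).

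In the ovulation window 6 of the 12 desensitisation genes were higher and 4 lower, against 38.0% and 35.2% of all genes. The arrestins Arrb1 and Arrb2, which bind phosphorylated receptors, rose by 0.99 and 0.36. The kinases that phosphorylate G protein-coupled receptors moved both ways: Grk2 fell by 0.20, Grk5 fell by 0.49, Grk4 rose by 1.16 and Grk3 rose by 2.83 (edgeR, adjusted p = 4e-09), from 1.0 to 7.27 CPM. Arf6, a small GTPase of receptor internalisation, fell by 1.42 with 11 of 11 libraries below every control, as in 14.1% of all genes.

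Of the transcription factors named for the 2 promoters or for their cells, 15 were tested in maturation, 3 higher and 2 lower, against 13.3% and 16.1% of all genes. With a replicate block 1 was higher, and without PFNA libraries 1 and 2 there were 5 higher and 4 lower. These fits called 2895 and 5201 genes in all, against 4030 in the main fit. In ovulation 5 were higher and 10 lower of 16, with a median of -0.43, against 38.0% and 35.2% of all genes. Usf1, an E-box factor, fell by 0.99 in ovulation (SE 0.075, edgeR, adjusted p = 1.1e-11), while Fshr rose. Its levels, 41.9 ± 4.08 CPM (SD, n = 12) in controls and 21.0 ± 2.67 CPM (SD, n = 11) with PFNA, did not overlap. Every PFNA library lay below every control in 14.1% of all genes there. In maturation Usf1 was 42.0 and 46.2 TPM and did not pass (limma, adjusted p = 0.18).

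The SF-1 gene Nr5a1 fell by 0.60 in ovulation, whereas its relative Nr5a2 rose by 1.35 there and fell by 0.51 in maturation, the directions of Fshr. Sp1 and Sp3 fell by 0.48 and 0.31 in ovulation and did not pass in maturation. Foxo1, a factor of growing granulosa cells that FSH signalling keeps out of the nucleus, rose by 0.31 in maturation and by 1.98 in ovulation. Foxl2, a granulosa identity factor, did not pass in either window, at -0.22 and -0.19.

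Most FSH-responsive genes of granulosa cells were lower in maturation, and most were higher in ovulation. Of 14 in maturation, 10 were lower and 1 higher, against 16.1% and 13.3% of all genes, with a median log2 fold change of -0.66. Inhba, Fst and Sgk1 did not pass there, at -0.31, -0.58 and -0.016. In ovulation 9 were higher and 4 lower of 14, against 38.0% and 35.2% of all genes, with a median of 1.32. Lower in maturation and higher in ovulation, the pattern of Fshr, were 7 of the 14, against 7.64% of all genes tested in both windows. Without PFNA maturation libraries 1 and 2, 11 of the 14 were lower and 1 higher in maturation. That fit called 5201 genes in all, against 4030 in the main fit.

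Cyp19a1, the aromatase that makes estradiol, was 22.4 ± 4.46 TPM (SD, n = 11) in maturation controls and 11.8 ± 5.23 TPM (SD, n = 10) with PFNA, where 8 of 10 libraries lay below every control. It fell by 0.98 (SE 0.22, limma, adjusted p = 0.0018). In ovulation controls it was 47.3 ± 18.0 CPM (SD, n = 12) and with PFNA 223 ± 92.6 CPM (SD, n = 11), a rise of 2.23 on the log2 scale (SE 0.24, edgeR, adjusted p = 7.7e-09). The corresponding log2 fold changes of Fshr were -1.24 and 2.20.

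Nppc, the peptide that keeps oocytes in meiotic arrest, and its receptor Npr2 fell by 0.78 and 0.59 in maturation and rose by 1.29 and 1.72 in ovulation. Inhbb, an activin subunit, showed the widest swing of the list, falling by 2.39 and rising by 3.37. Prkar2b belongs to this list too and fell by 0.32 in maturation, a call that was lost in 13 of 27 alternative fits.

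Not every FSH-responsive gene followed Fshr. Inha, the inhibin alpha subunit, fell by 0.74 in maturation and fell by 0.41 in ovulation. The cyclin Ccnd2 fell by 1.998 in maturation and fell by 1.19 in ovulation. Grb14, an adaptor of insulin receptor signalling, rose in both, by 1.33 and 3.70.

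**Figure D3:**
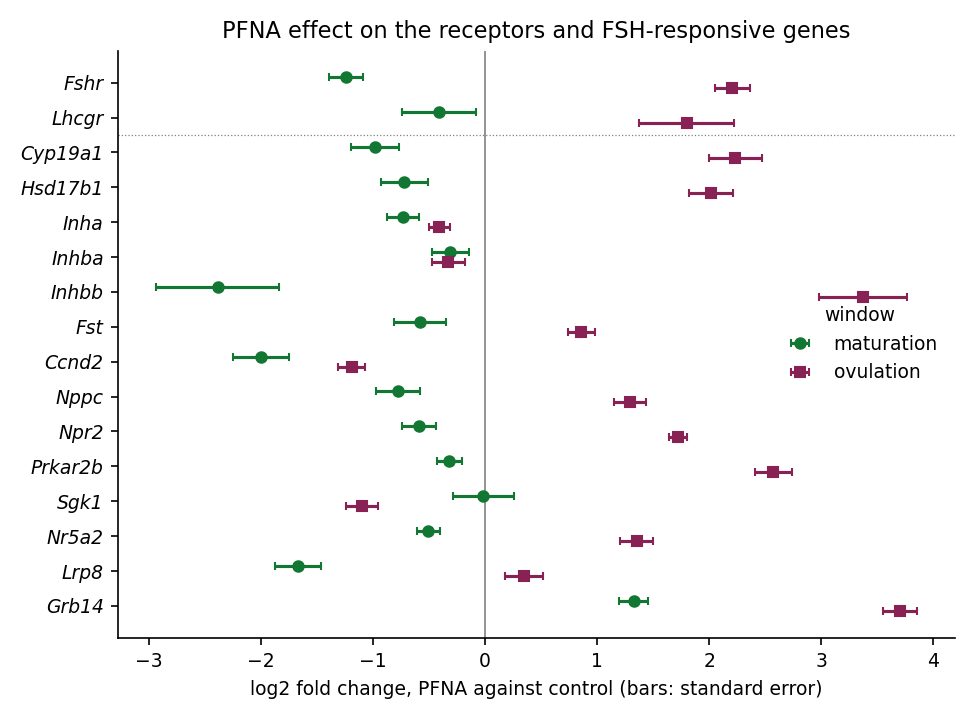
Points are log2 fold changes of PFNA against control with their standard errors, from limma in the maturation window (circles) and edgeR in the ovulation window (squares), for the receptors (above the dotted line) and 14 FSH-responsive genes. Of the 14, 7 lie left of 0 in maturation and right of 0 in ovulation with both changes past the threshold, as for Fshr, while Inha and Ccnd2 lie left in both and Grb14 right in both.

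Genes that the LH surge switches on went against Lhcgr in the ovulation window. Of 21, 19 were lower with PFNA and 2 higher, against 35.2% and 38.0% of all genes, with a median log2 fold change of -2.36, while Lhcgr itself was higher. In the maturation window 9 of these genes were too low to test, and 3 of 12 were higher and 5 lower, against 13.3% and 16.1% of all genes. Over 27 alternatives 0 to 5 were higher and 3 to 6 lower. Under a replicate block 0 were higher and 3 lower, with 2895 genes called in all against 4030 in the main fit. With control 3, 6 or 7 or PFNA library 4, 5 or 6 left out, 1 was higher. Ptgs2, the cyclooxygenase of the ovulatory cascade, was 5646 ± 1997 CPM (SD, n = 12) with hCG alone and 153 ± 57.0 CPM (SD, n = 11) with PFNA added, so it fell by 5.21 (SE 0.25, edgeR, adjusted p = 7.7e-15).

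Pgr, the progesterone receptor, fell by 3.78, and the EGF-like ligands Areg and Ereg fell by 2.36 and 3.68. The cumulus matrix genes Tnfaip6 and Ptx3 followed: Tnfaip6 fell by 4.11, Ptx3 fell by 6.39, and the transcription factor Runx1 fell by 3.49. The steroidogenic genes Star and Cyp11a1 fell by 2.13 and 1.14. Edn2, an endothelin, and Egr1, an immediate early factor, were the 2 that rose, by 0.97 and 0.94.

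Of the activin, IGF1 and oocyte inputs to receptor expression, 1 was higher and 3 lower of 11 in maturation, against 13.3% and 16.1% of all genes. In ovulation 5 were higher and 5 lower of 11, so 10 of 11 were called where 73.2% of all genes were. The oocyte factor Gdf9 fell by 3.31 in maturation and rose by 1.18 in ovulation. In maturation 8 PFNA libraries lay below every control for Gdf9, while library 10, at 93.8 TPM, lay above every control. Igf1r, the IGF1 receptor, fell by 0.77 in ovulation and was at 0.22 in maturation, which did not pass.

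**Figure D4:**
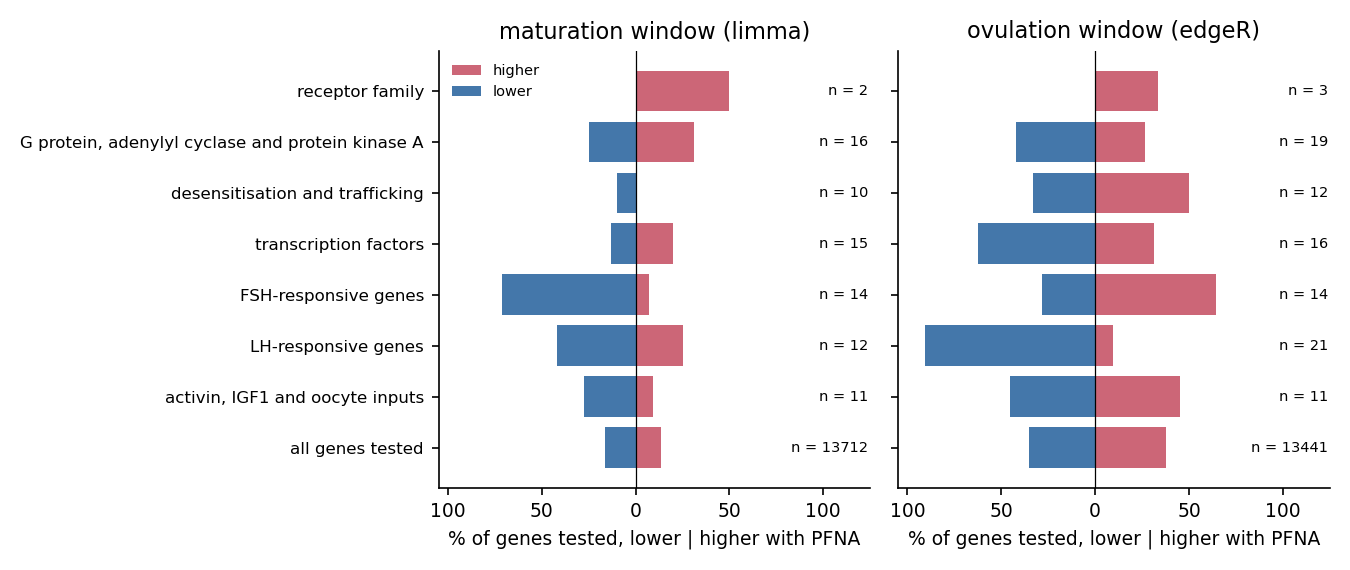
Bars give, for 7 lists and for all genes tested, the percentage of genes called lower (left of 0) and higher (right of 0) with PFNA at an adjusted p under 0.05, with the number tested at the right. The FSH-responsive genes extend to the left in maturation and to the right in ovulation, and 19 of 21 LH-responsive genes lie on the lower side in ovulation.

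Genes whose levels followed each receptor from library to library, after the mean of each group was subtracted, were ranked by Pearson's r of log2 values among genes whose mean reached 10 TPM or CPM, leaving out symbols of the Gm-number and Rik kinds and those turned into dates, which left 6497 genes in maturation and 8871 in ovulation. Libraries share total RNA and composition, so these r values are descriptions. For Fshr in maturation (21 libraries) the 5 genes most like it were Mgat4b (r = 0.887), Socs2 (0.871), Zbtb40 (0.866), Csrp2 (0.853) and Fam222a (0.850). Inha and Cyp19a1 reached 0.815 and 0.794. Of 12 FSH-responsive genes above that level, 11 had an r above 0 with Fshr, against 31.4% of all 7047 genes at that level. Their median was 0.626, against -0.198 for the 7047. Grb14 was the exception, at -0.756. This was not particular to Fshr and this list. With Lhcgr, 10 of the 12 had an r above 0, with a median of 0.35 against -0.137 for all genes. Of 8 LH-responsive genes, 6 had an r above 0 with Fshr, with a median of 0.282.

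For Fshr in ovulation (23 libraries) the closest genes were Nexmif (0.759), Slc8a1 (0.704), Ibtk (0.701), Ippk (0.687) and Pld1 (0.673). There the FSH-responsive genes had a median r of 0.108, and Cyp19a1 was at -0.155. For Lhcgr in maturation they were Cyp26b1 (0.877), Fam234a (0.828), Ogdhl (0.825), Comp (0.815) and Fbxl22 (0.810). The theca genes Cyp17a1 and Insl3 were at 0.593 and 0.433 with Lhcgr there, above the 95th percentile of the genes ranked, 0.376. Nr2f2, also on the list of theca and interstitial markers, went the other way, at -0.573. In the same window Insl3 was at 0.613 with Fshr, above the 95th percentile for that receptor, 0.484. Cyp26b1, which breaks down retinoic acid, rose by 1.26 with PFNA while Lhcgr did not pass, but its call was lost in 19 of 27 alternative fits.

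In the ovulation window Lhcgr tracked genes of the ovulatory response from library to library within each group, although the group means moved apart. The 5 most like it were Lrrn3 (0.938), Pgr (0.924), Crem (0.917), Slc25a3 (0.914) and Cyp11a1 (0.903), and all 5 fell with PFNA. Lrrn3 fell by 3.77, Pgr fell by 3.78, Crem, a cyclic AMP response factor, fell by 1.70, Slc25a3, a mitochondrial phosphate carrier, fell by 0.46, and Cyp11a1 fell by 1.14. Of 20 LH-responsive genes, 17 had an r above 0 with Lhcgr, against 49.5% of all 9016 genes at that level. Their median was 0.653, against -0.0047 for the 9016. Foxl2 ran opposite to Lhcgr, at -0.720. The theca genes Cyp17a1 and Insl3 were at 0.622 and 0.565 with Lhcgr, where the 5th to 95th percentile of the genes ranked was -0.606 to 0.67. Nr2f2, on the same marker list, was at -0.482. The part of theca cells in these r values was not tested.

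Pgr in the PFNA libraries was 72.9, 33.7, 87.3, 12.7, 109, 219, 26.6, 46.6, 67.4, 19.5 and 24.0 CPM in the order of their numbers. Libraries 5 and 6, the highest for Lhcgr, were the highest for Pgr too. All 11 lay below the lowest control, which had 449.6 CPM, as in 14.1% of all genes. Cyp11a1, the enzyme that starts steroid synthesis, showed the same order at the top, with 687 and 1012 CPM in libraries 5 and 6 and 117 to 462 CPM in the other 9.

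**Figure D5:**
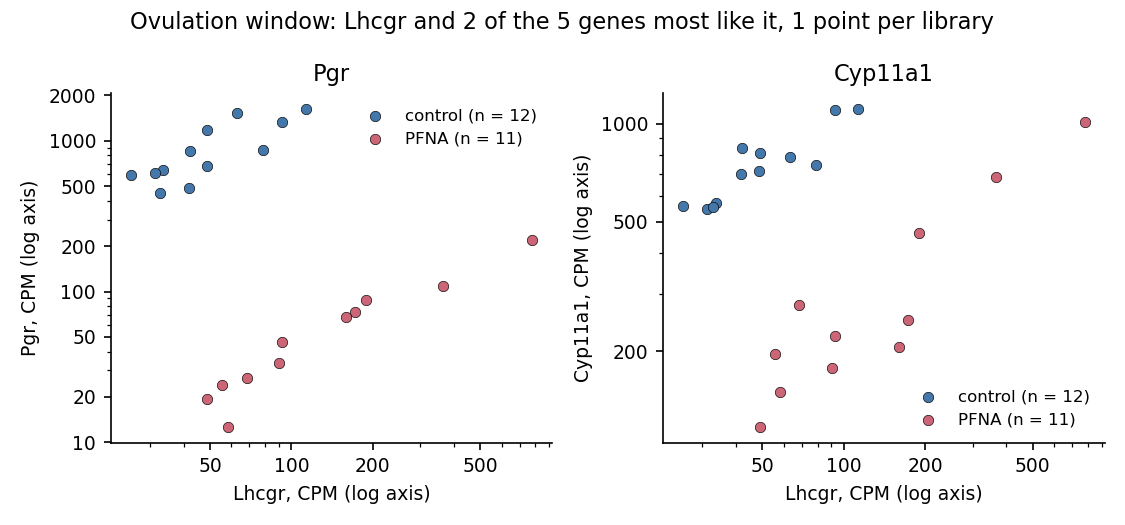
Each point is 1 ovulation library, with Lhcgr on the horizontal axis and Pgr (left) or Cyp11a1 (right) on the vertical axis, all in CPM on logarithmic axes. Within each group the points rise together, but at a like level of Lhcgr the PFNA libraries lie below the controls, and PFNA libraries 5 and 6 are the 2 farthest right.

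Markers of cell types were counted too. In the ovulation window 38.0% of all genes were called higher and 35.2% lower, 73.2% in all. There 8 theca and interstitial markers summed to 102.6 to 382.8 CPM in controls. With PFNA they summed to 269 to 539 CPM, highest in library 5. Of the 8, 4 were higher and 2 lower, so 6 were called, close to the share of all genes. Cyp17a1, the theca enzyme of androgen synthesis, was 39.0 ± 36.6 CPM (SD, n = 12) and 81.8 ± 54.6 CPM (SD, n = 11), a rise of 1.07 whose call was lost in 13 of 28 alternative fits. Endothelial markers were higher in 4 of 4, with sums of 30.1 to 107 CPM against 35.0 to 291 CPM. The 4 luteal markers summed to 692 to 2207 CPM in controls and 83.8 to 998 CPM with PFNA, highest in library 6, the one highest for Lhcgr. Of these markers 0 were higher and 3 lower. A single marker, Sfrp4, made up most of the highest sums, at 1900 CPM in control 4 and 723.1 CPM in PFNA library 6. Of the 10 oocyte markers tested, 5 were higher and the rest did not pass, with sums of 72.98 to 296.4 CPM in controls and 13.86 to 457.2 CPM with PFNA, lowest in library 5, which was also lowest for Fshr. Of the 8 granulosa markers, 5 were higher and 2 lower, with sums of 12440 to 19360 CPM against 10780 to 17400 CPM. The 2 lower ones, Inha and Inhba, made up most of these sums. Their means were 7352 and 6698 CPM in controls, and 5538 and 5332 CPM with PFNA. Both are also on the FSH-responsive list, so the sum is no separate measure of granulosa cells. The part of these cells in the receptor values was not tested.

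In maturation the sums of the theca markers were 279 to 940.5 TPM in controls and 190 to 588 TPM with PFNA. Of the 8, 2 were higher and 1 lower, against 13.3% and 16.1% of all genes. Ptch1, the hedgehog receptor, rose by 0.57 (SE 0.15, limma, adjusted p = 0.0056) and the nuclear receptor Nr2f2 rose by 0.59 (limma, adjusted p = 0.015). Cyp17a1 did not pass (limma, adjusted p = 0.75), and Insl3, a theca hormone, fell by 1.12, a call lost in 12 of 27 alternative fits. The 8 granulosa markers summed to 32380 to 52320 TPM in controls and 14200 to 38940 TPM with PFNA, lowest in library 10, which was also lowest for Fshr. Of these markers 4 were lower and 1 higher, against 16.1% and 13.3% of all genes. Inha, with a mean of 34970 TPM in controls and 21740 TPM with PFNA, made up most of these sums. Inha, Inhba, Fst, Nr5a2 and Cyp19a1 are also on the FSH-responsive list, so the sum is no separate measure of granulosa cells. All 10 oocyte markers tested were lower, with sums of 135.0 to 207 TPM in controls and 0.425 to 349.7 TPM with PFNA. The median sum was 182.4 TPM in controls and 1.68 TPM with PFNA. Library 10, lowest for Fshr, had the highest PFNA sum, above every control. Of 3 luteal and 3 endothelial markers tested, 0 passed (limma), also 0 at an unadjusted p under 0.05. The part of these cells in the Fshr values was not tested.

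Genes near the receptors did not move with them as a block. Of the tables' genes that start within 500 kb of either receptor's start, Foxn2 and Ppp1r21 did not pass in maturation and fell by 0.22 and 0.42 in ovulation. Ston1 rose by 0.51 in maturation and fell by 0.85 in ovulation, the reverse of Fshr. Gtf2a1l was too low to test in maturation and rose by 1.39 in ovulation, from 0.755 to 1.99 CPM. Gm50056, listed in the maturation table alone, fell by 1.44 there. It spans 88662406 to 88664765 on the other strand and overlaps only the end of Ston1, which stops at 88662586. Reads in that shared stretch cannot be told apart without strand-specific counting, which the sources used here do not state.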

How the data were processed

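Follicle RNA of 44 libraries was isolated with a kit for small inputs, selected for poly-A and primed with random hexamers, per the labels' protocols. The authors deposited 1 table per window. The maturation values are TPM, since every deposited library sums to 1000000 and 80.2% of values are not whole (tolerance 0.01), although the table is named as raw counts. The ovulation values are estimated counts deposited by the authors, 9.82% of them not whole, and were rounded before testing. Over 7639 genes with at least 5 TPM and 5 CPM, the log2 ratio of TPM to CPM fell with log2 transcript length (slope -1.1, Spearman correlation across genes -0.522). Partek, Bowtie2 and HISAT2 are named in the submitters' processing notes; their roles and versions, the build and the annotation are not given in the sources used here. The heading of maturation control 6 differs by 1 letter from that library's title and was taken as it. Spreadsheet software had turned 24 and 26 gene symbols into dates, and no per-sample column was left unused.

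The maturation groups were compared with limma 3.58.1 (trend, robust) on log2(TPM + 1) for genes averaging 1 TPM or more, and the ovulation groups with edgeR 4.0.16 (filterByExpr, TMM, robust quasi-likelihood) in R 4.3.3. P-values were adjusted by Benjamini-Hochberg over all genes tested, and 0.05 was the threshold. For the difference between windows, limma was fitted to the log2 values of each table separately. The maturation effect was subtracted from the ovulation effect, the standard errors were combined, and the difference was tested with a t-test. Ratios, spreads and correlations used two-sided permutation tests (100000 resamples, SciPy 1.17.1). Alternatives were DESeq2 1.42.0, other scalings, filters and pseudocounts, a replicate block and leaving out each library. The fits were tested on simulated data.

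The receptors and all lists were chosen with earlier results of these data known. The genes named were both receptors, the smallest p of each list and window, a panel of pathway genes, genes within 500 kb, and the 5 genes most like each receptor; other list members were named after their values were seen. Protein sequences were not used here.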

Additional observations from a re-analysis of the deposited data

Results flagged for a closer look

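Among 60 results searched in the maturation PFNA group, the 1 group with 10 libraries (the others are larger and were not searched), 11 had a library far from the rest. Chance alone would give about 3.0 for independent, normally distributed results. The results were not independent, as Gdf9 is also part of the summed oocyte markers, and normality was not checked. An excess over chance was therefore not shown. Neither receptor was among the 11.

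In PFNA library 1, Ccnd2 was 120.1 TPM (next 60.2 TPM), E2f1 24.8 TPM (next 15.6 TPM), Nexmif 17.6 TPM (next 12.9 TPM) and Gm50056 1.96 TPM (next 0.953 TPM). In library 8, the highest for both receptors, Cyp26b1 was 75.5 TPM (next 30.1 TPM), Insl3 198.7 TPM (next 104.5 TPM), and the summed luteal markers 136.3 TPM (next 67.9 TPM). In library 10, the lowest for Fshr, Gdf9 was 93.8 TPM (next 33.2 TPM), the summed oocyte markers 349.7 TPM (next 139.5 TPM), Lgr6 6.37 TPM (next 3.505 TPM) and Ston1 4.36 TPM (next 2.59 TPM).

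The PFNA effect differed between the windows for both receptors by a test of the difference itself: it was higher in ovulation by 3.37 (log2) for Fshr and by 1.77 for Lhcgr.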

How the results depend on the processing

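Of 234 alternative values of receptor results and of counts of genes called, 227 were kept. A receptor result was kept if its direction and its side of the threshold stayed, and a count if it moved by at most 1.5 times. The mean absolute deviation of Fshr in ovulation, 0.0138 higher with PFNA, turned to -0.000605 with a pseudocount of 0.1 and to -0.00657 on the linear scale. The correlation of Fshr with Lhcgr turned to -0.0214 in ovulation controls and to 0.144 in ovulation PFNA libraries without the 2 libraries farthest from the Fshr median. None of these had passed a test, and the cause was not tested. A pair of alternatives was chosen after seeing the data, both without PFNA libraries 1 and 2: the maturation ratio difference was 1.02, and the correlation in maturation PFNA libraries was 0.832. Leaving out 1 library at a time, the log2 fold changes ranged from -1.29 to -1.15 (Fshr, maturation), -0.55 to -0.25 (Lhcgr, maturation), 2.15 to 2.30 (Fshr, ovulation) and 1.26 to 1.94 (Lhcgr, ovulation). The ratio difference ranged from 0.744 to 1.003 in maturation and from -1.06 to -0.64 in ovulation, where it passed without PFNA library 5 or 6. Replicate numbers did not pair the libraries: correlations of same-numbered deviations ranged from -0.138 to 0.168 over 9 maturation pairs and from -0.193 to 0.073 over 11 ovulation pairs, and a control correlated best with its own number in 1 and 0 cases. With a replicate block Fshr was -1.27 and 2.15 and Lhcgr -0.50 and 1.31, with the same calls; genes called went from 4030 to 2895 and from 9837 to 9333. Of 2917 alternative values of named genes, 80 lost and 32 gained a call, most often Cyp26b1, Areg (18 of 27), Prkar2b and Insl3 in maturation and Cyp17a1 in ovulation, and 37 of 770 list counts moved by over 1.5 times. Other scalings put the median of all genes between -0.00432 and 0.0639. TPM gives no depth for maturation; in ovulation both receptors had at least 111 counts in every library.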
